A study of Arabidopsis thaliana with 12 samples.

Results

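Roots of Arabidopsis thaliana seedlings treated with chitin oligomers were compared with roots that received no elicitor. The comparison is of the 3 arrays labelled as chitin with the 3 labelled as control, 6 of the 12 arrays in the series. Each array is a biological replicate by its label. The other arrays are 3 of cellobiose and 3 of oligogalacturonides (OGs). All 12 arrays entered the model, so the errors and p-values rest on a spread shared by the 4 groups. All 4 groups are roots of 7-day-old Col-0 seedlings taken 3 h after the start of treatment, with no mutation or transgene named in the labels. Per the labels about 50 to 100 seeds were sown on a nylon mesh through which the roots grew, so that roots and shoots could be separated and each array holds RNA from many pooled seedlings. The sources used here state neither the doses nor the oligomer lengths.

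Chitin is the N-acetylglucosamine polymer of fungal cell walls, and plants bind its oligomers at the cell surface through receptor kinases with extracellular LysM domains. Binding is followed within minutes by calcium entry, a burst of reactive oxygen, and phosphorylation through receptor-like cytoplasmic kinases and MAP kinases, and later by transcription of genes for secreted enzymes, indole and phenolic compounds and further receptors. Chitinases made by the plant cut fungal walls and release more oligomers. Of the 8 LysM receptor and co-receptor genes listed, 0 had a probe set that the annotation ties to them alone, so the receptors themselves are not analysed here.

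Chitin changed the levels of 1249 of 13355 genes, 607 up and 642 down (limma, Benjamini-Hochberg adjusted p under 0.05), which is 4.55 percent of the genes called up and 4.81 percent called down. The counts of called members in the gene lists that follow stand beside these shares, and no list was tested against them. With quantile normalization the split was 689 up and 551 down, and with arrays centred on their medians 687 and 524. Increases were the larger changes. Of the genes called up, 182 rose by 2-fold or more and 64 by 4-fold or more, while of those called down 77 fell by 2-fold or more and 9 by 4-fold or more. The median fitted change was 0.68 on the log2 scale among genes called up and -0.55 among those called down, against -0.02 over all genes. Levels throughout are log2 intensities as deposited, and changes are fitted differences of them, chitin minus control, with the standard error (SE) of the model.

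The counts varied with brightness and with single arrays. In the dimmest 4452 genes, with mean levels up to log2 4.52, 0.809 percent were called up and 0.449 percent down, against 7.12 and 6.87 percent in the brightest 4452. Chitin replicate 2 lay farthest from the control in 373 of the 607 genes called up and in 409 of the 642 called down. Without it 779 genes were called, 331 of them down, and without control replicate 2 the counts were 830 and 384. The probe sets of the manufacturer's bacterial polyadenylated spike-in transcripts averaged log2 5.63, 5.70 and 5.72 on the chitin arrays. The control arrays were higher, at 6.01, 5.88 and 5.85. Cellobiose arrays had 5.76, 5.66 and 5.72, and OGs arrays 5.64, 5.79 and 5.97. The part of the offset between chitin and control arrays in the results was not tested. The plot of change against mean level shows increases reaching 5.32 and decreases reaching -2.73.

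**Figure D1:**
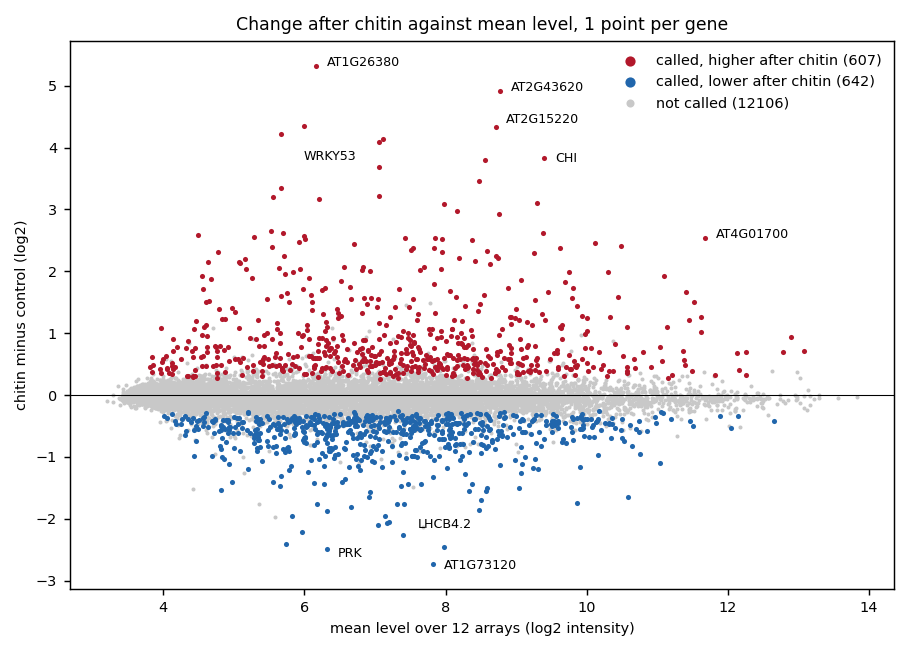
Fitted log2 change after chitin (vertical axis) against the mean log2 level over 12 arrays (horizontal axis), 1 point for each of 13355 genes, with genes called higher in red, genes called lower in blue and genes not called in grey. Increases extend to 5.32 (AT1G26380) and decreases to -2.73 (AT1G73120), and few genes with a mean under 4.52 were called.

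The 25 largest increases and 25 largest decreases were read array by array. In all 25 increases, and in all 25 decreases, the chitin and control arrays did not overlap. The increases and decreases were chosen as the largest called changes on the same arrays, so this lack of overlap follows largely from the choice. The groups also did not overlap in 601 of the 607 genes called up and in 625 of the 642 called down. Over all genes, called or not, 10.1 percent had every chitin array above every control array and 13.4 percent had every chitin array below. Chitin replicate 2 was the most extreme chitin array in 21 of the 25 increases and in 21 of the 25 decreases. The increases were tighter than the decreases, with a median SD of 0.32 on the chitin arrays and 0.20 on the control arrays, against 0.55 and 0.39 for the decreases.

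**Figure D2:**
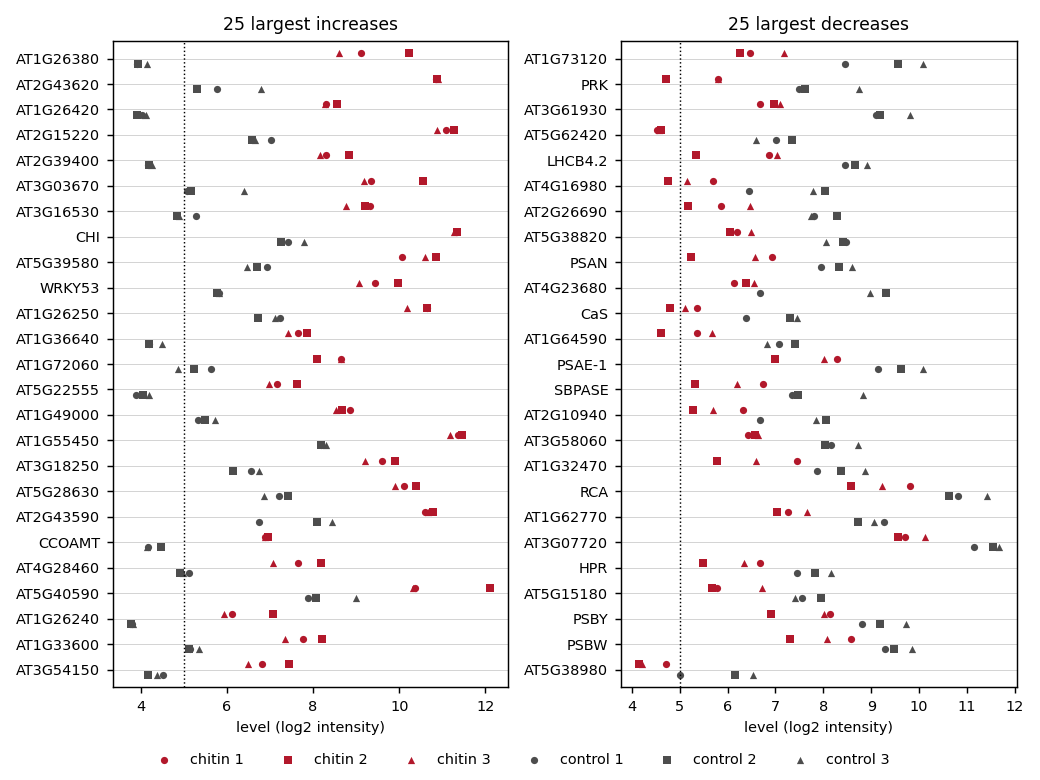
Log2 level on each chitin array (red) and each control array (grey) for the 25 largest increases (left) and the 25 largest decreases (right), ordered by size, with circles, squares and triangles for replicates 1, 2 and 3 and a dotted line at log2 5, the level treated as dim. Red and grey symbols do not overlap in any row, and the red square of chitin replicate 2 is the outermost red symbol in 21 rows of each panel.

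The largest increase of a named gene was that of AT1G26380, which encodes a flavin-dependent oxidase of the berberine bridge enzyme-like family that makes an indole cyanide. Its levels were 9.12, 10.23 and 8.61 on the chitin arrays, against 3.91, 3.93 and 4.15 on the control arrays. All 3 control arrays lay at a level treated as dim, under log2 5, so the change is given against 5, as at least 20.0-fold (adjusted p = 1.25e-06). Its relative AT1G26420 had 8.29, 8.57 and 8.27 after chitin and 4.03, 3.92 and 4.13 in the control, and rose at least 10.4-fold. The replicates of AT1G26420 were within 0.30 of each other in either group, and those of AT1G26380 spread over more than 1 log2 unit after chitin.

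Among the other large increases AT2G15220, of the basic secretory protein family, stood at 11.09, 11.28 and 10.89 after chitin and 7.02, 6.57 and 6.64 in the control, a change of 4.34 ± 0.14 (SE, adjusted p = 9.53e-08), through a probe set that may also detect other sequences. AT1G49000 had 8.86, 8.67 and 8.54 after chitin against 5.34, 5.48 and 5.73. AT1G55450, a methyltransferase family gene, had 11.36, 11.46 and 11.18 after chitin against 8.18, 8.19 and 8.29. In these last 2 genes the arrays of a group agreed within 0.39, and the changes were 3.17 ± 0.13 and 3.11 ± 0.12 (SE).

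Some further genes of this set encode secreted or wall proteins. AT1G26250, an extensin-like proline-rich wall protein gene, rose by 3.46 ± 0.16 (SE) and its neighbour AT1G26240 at least 2.59-fold. AT1G72060, of a protease inhibitor family, rose by 3.22 ± 0.18, and AT3G16530, of the legume lectin family, by 4.09 ± 0.33. AT4G28460, which encodes the precursor of a secreted peptide induced by microbial patterns, had 7.64, 8.18 and 7.06 after chitin against 5.11, 4.91 and 4.98, a change of 2.63 ± 0.19 (adjusted p = 9.09e-06). AT5G40590, a C1-domain protein gene, had 10.36, 12.12 and 10.31 after chitin and 7.88, 8.06 and 9.0 in the control. Chitin replicate 2 was the high array of that last gene, whose change was 2.62 ± 0.41 with it and 1.99 without it. AT2G39400, an alpha/beta hydrolase gene, rose at least 10.8-fold. The set also held AT3G18250, AT5G28630 and the leucine-rich repeat gene AT1G33600, higher by 3.09, 2.97 and 2.57. AT1G36640, AT5G22555 and AT3G54150 were at least 6.24-fold, 4.77-fold and 3.76-fold higher, and the remaining members are given below.

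Genes of perception and early signalling rose in part. Of 5 measured pattern and wall receptor genes, AT1G56145, a malectin-domain receptor kinase that in Arabidopsis responds to cellooligomers, rose by 0.80 ± 0.09 (SE, adjusted p = 0.000313), with 8.62, 8.70 and 8.67 after chitin against 7.72, 7.83 and 8.03. EFR, the receptor for a bacterial elongation factor peptide, stood at 0.19 ± 0.10 (adjusted p = 0.34), and FER, a receptor of RALF peptides, at 0.02 ± 0.10. Of 5 receptor-associated kinase and oxidase genes, BIK1, a cytoplasmic kinase that phosphorylates the reactive oxygen-producing oxidase, rose by 0.45 ± 0.09 (adjusted p = 0.00739). With the chitin and control arrays fitted alone BIK1 had an adjusted p of 0.0942.

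Receptor kinases with a malectin-like domain and leucine-rich repeats were counted as a family by locus, a list written after the data had been seen. Of 39 measured, 13 rose and 1 fell, with a median of -0.01. That is 33.3 percent up and 2.56 percent down, against 4.55 and 4.81 percent over all genes. AT1G51890 had 8.97, 9.11 and 8.74 after chitin against 6.32, 6.41 and 6.48, and rose by 2.54 ± 0.12 (SE, adjusted p = 5.30e-07). AT5G59680 had 9.77, 10.08 and 9.75 after chitin against 7.26, 7.35 and 7.47, and rose by 2.51 ± 0.11. The chitin arrays of both kinases lay more than 2 log2 units above every control array. The remaining 11 increases ranged from 0.37 to 1.18, and AT4G20450 was the member that fell, with a fitted -1.11 ± 0.12 and a chitin mean under log2 5.

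Other receptor and signalling genes, chosen after their values were seen, also lay clearly apart between the groups. The leucine-rich repeat receptor kinase genes AT1G74360, AT5G25930 and AT4G08850 rose by 1.96 ± 0.13, 1.58 ± 0.12 and 1.25 ± 0.09 (SE). AT4G08850 was already bright, with 10.80, 10.58 and 10.73 after chitin against 9.49, 9.27 and 9.60. AT4G11230, of the family of respiratory burst oxidases, had 7.06, 6.75 and 6.61 after chitin against 5.22, 5.20 and 5.51 (adjusted p = 6.16e-05). The receptor-like cytoplasmic kinase gene AT3G09830 rose by 1.06 ± 0.11. All 3 chitin arrays were above all 3 control arrays for each of these 5 genes, which follows largely from that choice. Over all genes 10.1 percent had every chitin array above every control array.

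Of 11 calcium signalling genes, 5 rose and 1 fell, with a median of 0.31. AT5G39670, an EF-hand protein gene, had 7.43, 8.02 and 7.45 after chitin against 4.95, 4.96 and 5.58, and rose by 2.47 ± 0.19 (SE, adjusted p = 1.38e-05). The calmodulin-like CML42 and CML43 rose by 1.08 ± 0.12 and 0.95 ± 0.13. The calmodulin-like CML37 and AT3G01830 were called but lay under log2 5 on all 6 arrays, so that no fold is given, and both lost the call without chitin replicate 2 or control replicate 2, among other arrays, which left 3 increases. AT1G76640, the member called down at -0.27 ± 0.08, lost its call with any 1 of the 6 arrays left out, with an adjusted p from 0.0767 to 0.168.

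Of 9 ubiquitin ligase genes linked to elicitor signalling, 4 rose and AT1G20823, a RING finger gene, fell by 0.81. PUB22, PUB23 and PUB24, U-box ligases that restrain immune signalling in Arabidopsis, rose by 1.15 ± 0.09, 0.99 ± 0.12 and 1.66 ± 0.22 (SE). PUB24 had 6.25, 7.37 and 6.43 after chitin against 5.13, 5.09 and 4.85, and the fourth increase was that of AT5G37490, at least 1.26-fold. Chitin replicate 2 gave the highest PUB24 level, and the other chitin arrays were still above every control array.

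Transcription factors moved in small numbers. WRKY53, a regulator of defence and leaf senescence, had 9.43, 9.98 and 9.08 after chitin against 5.82, 5.78 and 5.82, and rose by 3.69 ± 0.16 (SE, adjusted p = 3.60e-07). STZ, a zinc finger repressor of stress responses, had 8.47, 9.37 and 8.92 after chitin against 6.54, 6.50 and 6.69. The 3 control arrays of each gene agreed within 0.19, while the chitin arrays spread over 0.90. WRKY6 rose by 0.74 ± 0.11, with 8.87, 9.03 and 8.81 after chitin against 7.98, 8.16 and 8.35. In all 2 of 7 WRKY genes rose and WRKY22 fell, at -0.72 ± 0.17 (adjusted p = 0.0168). WRKY22 lost its call without chitin replicate 1 (adjusted p = 0.0597), chitin replicate 2 (0.0830) or control replicate 2 (0.0842). Of 21 bZIP genes, a list written after the data had been seen, BZIP60, a factor of the unfolded protein response, rose by 0.68 ± 0.08, and 0 of 42 AGAMOUS-like genes were called. The 1 bZIP increase is 4.76 percent of its list, near the 4.55 percent called up over all genes. At an unadjusted limma p under 0.05 the count of AGAMOUS-like genes was 1.

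**Figure D3:**
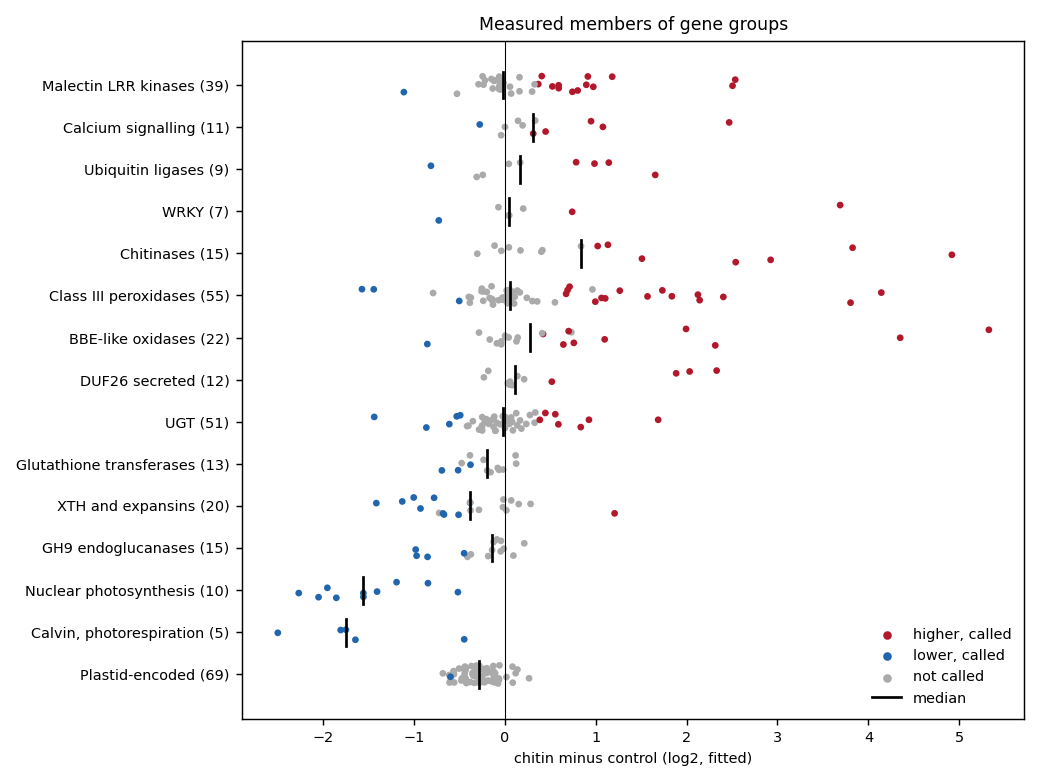
Fitted log2 change after chitin for the measured members of 15 gene groups, 1 point per gene with the number of genes in brackets, red for called higher, blue for called lower, grey for not called, and a black bar at the median. The chitinase median lies at 0.84 and the nuclear photosynthesis median at -1.55, while in most other groups the median lies near 0 with a tail of called genes on 1 side.

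Chitinase genes, whose products cut the polymer that the treatment is made of, rose in 7 of 15 measured cases and fell in 0, with a median of 0.84 against -0.02 over all genes. AT2G43620 had 10.86, 10.88 and 10.90 after chitin against 5.77, 5.31 and 6.79. CHI had 11.31, 11.34 and 11.28 after chitin against 7.42, 7.25 and 7.78. For both genes the chitin arrays agreed within 0.06 while the control arrays spread over 0.53 or more. AT2G43590 rose by 2.92 ± 0.29 (SE) and AT4G01700, the brightest of the 7, by 2.54 ± 0.10, with 12.93, 13.07 and 12.83 after chitin against 10.39, 10.50 and 10.33. AT1G02360 rose by 1.51 ± 0.10, AT2G43610 by 1.02 ± 0.14 and AT2G43580 at least 1.32-fold. With any 1 of the 6 arrays left out, 7 to 9 of the genes were called up and 0 down.

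Class III peroxidases, secreted enzymes that use hydrogen peroxide to cross-link or loosen wall phenolics, moved both ways. Of 55 measured, 15 rose and 3 fell, with a median of 0.06. The increases are 27.3 percent of the list, against 4.55 percent over all genes. The decreases are 5.45 percent, near the 4.81 percent called down over all genes. AT3G03670 had 9.34, 10.54 and 9.19 after chitin against 5.08, 5.17 and 6.40. Control replicate 3 was the high control array for this gene, whose change was 4.14 ± 0.38 (SE) with it and 4.75 without it. AT5G39580 had 10.07, 10.86 and 10.59 after chitin against 6.93, 6.69 and 6.48. AT4G36430 (2.40), AT4G08780 (2.13), AT5G06730 (1.84), AT5G64110 (1.73) and AT5G19890 (1.57) followed among genes measured above log2 5 in both groups. AT5G64100 and AT5G64120, at 13.4 and 13.0 after chitin the brightest of the peroxidases that rose, changed by 0.71 and 0.69. The decreases were those of AT5G15180 (-1.57 ± 0.24), AT1G34510 (-1.44 ± 0.12) and AT5G40150 (-0.50 ± 0.12).

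Berberine bridge enzyme-like oxidases rose in 9 of 22 cases and 1 fell, with a median of 0.28. The increases are 40.9 percent of the list, against 4.55 percent over all genes. The decrease is 4.55 percent, near the 4.81 percent called down over all genes. AT4G20830, an oxidase of oligogalacturonides, had 11.36, 11.44 and 11.13 after chitin against 9.32, 9.22 and 9.41, and rose by 1.99 ± 0.13 (SE). AT4G20860, an oxidase of cellodextrins, had 11.26, 11.20 and 11.29 after chitin against 10.09, 10.04 and 10.32, and rose by 1.10 ± 0.12. Both genes were bright on the control arrays as well, unlike AT1G26380 and AT1G26420. AT1G26410 rose at least 2.61-fold, AT5G44380 by 0.70 ± 0.09, and AT4G20820 was the member that fell (-0.85 ± 0.12).

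Of 15 other pathogenesis-related and glucanase genes, AT2G15220 and AT3G16530 rose and AT1G75800, a thaumatin-like gene, fell by 0.52, with a median of -0.08. AT1G75800 lost its call without chitin replicate 1, chitin replicate 2, control replicate 1 or control replicate 2, with adjusted p from 0.121 to 0.160. Without control replicate 3 there were 4 increases and 2 decreases in this list. Of 12 secreted proteins with the cysteine-rich DUF26 repeat, a family counted after the data had been seen, 4 rose and 0 fell. AT5G48540 had 9.70, 9.58 and 9.51 after chitin against 7.46, 7.00 and 7.33, and AT3G22060 and AT1G63580 rose at least 2.87-fold and 2.84-fold.

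Genes of indole and phenolic synthesis rose in part. All 3 measured genes of tryptophan, camalexin and indole glucosinolate synthesis were called up. CYP71B6, a cytochrome P450 that works on indole acetonitrile, had 11.35, 11.41 and 11.10 after chitin against 9.71, 9.59 and 9.80, and AT2G04400, indole-3-glycerol phosphate synthase, had 10.56, 10.93 and 10.34 against 9.22, 9.06 and 9.20. The groups of both genes were more than 1 log2 unit apart. UGT74B1, a glucosyltransferase of glucosinolate synthesis, was called at 0.45 ± 0.12 (SE, adjusted p = 0.0395) and lost the call without chitin replicate 1, chitin replicate 2, control replicate 1 or control replicate 2, with adjusted p from 0.120 to 0.173. Of 2 genes of chorismate supply, AT1G22410, a first-step enzyme of the shikimate pathway, was called at 0.40 ± 0.08, with adjusted p of 0.0662, 0.0504 and 0.0623 without chitin replicate 2, control replicate 1 or control replicate 2.

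Of 5 phenylpropanoid and lignin genes 3 rose, with a median of 0.90. CCOAMT, a methyltransferase of caffeoyl-CoA, had 6.89, 6.96 and 6.89 after chitin against 4.17, 4.46 and 4.14, and rose at least 3.78-fold. CCR2, a cinnamoyl-CoA reductase linked to defence lignin, rose by 1.24 ± 0.22 (SE) and the laccase gene LAC16 by 0.90 ± 0.17. HCT, of the same pathway, was bright in both groups and stood at 0.07 ± 0.08 (adjusted p = 0.70). CCR2 had an adjusted p of 0.0702 when the chitin and control arrays were fitted alone.

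Families that modify small molecules were split. Of 51 UDP-glycosyltransferases, counted by symbol after the data had been seen, 7 rose and 5 fell. That is 13.7 percent up and 9.80 percent down, against 4.55 and 4.81 percent over all genes. UGT73D1 rose by 1.69 ± 0.12 (SE), UGT73B5 by 0.84 ± 0.11 and UGT72B3 fell by 1.43 ± 0.15. The decreases numbered 3 without chitin replicate 2 and 2 without control replicate 2. Of 22 named cytochrome P450 genes 4 rose and 2 fell, with CYP71B23 at 1.61 ± 0.11 and CYP71B34 at -0.92 ± 0.10, and 2 rose without chitin replicate 2, control replicate 1 or control replicate 3, while 1 fell without chitin replicate 2, chitin replicate 3, control replicate 1 or control replicate 2. Of 13 glutathione transferases 0 rose and 3 fell, with a median of -0.19. GSTU26 (-0.69 ± 0.17), GSTU27 (-0.38 ± 0.09) and GSTU18, which lay under log2 5 on all 6 arrays, were the decreases. GSTU26 and GSTU27 lost their calls without chitin replicate 1, which left 1 decrease, and also without control replicate 1 or control replicate 2.

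Hormone genes were measured in small numbers. Of 3 salicylate genes 2 rose and 0 fell, the glutaredoxin gene GRX480 by 0.69 ± 0.13 (SE, adjusted p = 0.00534) and SAG101, a partner of the immune regulator EDS1, by 0.59 ± 0.11. Neither of the 2 jasmonate genes was called, and at an unadjusted limma p under 0.05 the count was also 0. OPCL1 and JMT stood at 0.23 ± 0.14 (adjusted p = 0.38) and -0.01 ± 0.09, and the second of these was dim in both groups. Of 2 ethylene genes AT1G12010, an oxidase of ethylene synthesis, rose by 0.69 ± 0.13. Of 11 auxin response genes 2 rose and 1 fell. LBD16, a regulator of lateral root initiation, rose by 0.51 ± 0.09, IAA18, a repressor of auxin response, rose by 0.39 ± 0.09, and GH3.1, an auxin-conjugating enzyme, fell by 0.46 ± 0.10. IAA18 lost its call without chitin replicate 3 (adjusted p = 0.0752), control replicate 2 (0.0604) or control replicate 3 (0.0532), and GH3.1 without chitin replicate 1 (0.0617) or control replicate 1 (0.0629). With the chitin and control arrays fitted alone SAG101 (adjusted p = 0.0747), AT1G12010 (0.0847) and LBD16 (0.0753) lost their calls, and 0 auxin genes were called up. Neither of the 2 measured cytokinin response genes, RR16 and ARR15, was called, at -0.17 and -0.16 with dim levels in both groups.

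Part of the measured genes of wall loosening and growth fell after chitin. Of 20 xyloglucan enzymes and expansins, proteins that let the wall yield as cells expand, 9 fell and 1 rose, with a median of -0.38. EXPB3 had 8.33, 8.13 and 8.17 after chitin against 9.59, 9.13 and 9.28, and fell by 1.13 ± 0.10 (SE, adjusted p = 3.72e-05). XTH32 had 8.01, 7.57 and 7.81 after chitin against 8.78, 8.72 and 8.67, and fell by 0.93 ± 0.12. EXPA15 fell by 0.78 ± 0.11 and XTH33 by 1.00 ± 0.15, and EXLB1, an expansin-like gene, rose by 1.21 ± 0.15. The chitin arrays of these 5 genes did not overlap the control arrays, which follows largely from their choice among called genes. Over all genes 10.1 percent had every chitin array above every control array and 13.4 percent had every one below. The 9 decreases became 5 without chitin replicate 1, without chitin replicate 3 or without control replicate 1.

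Further wall genes moved, in families counted after the data had been seen. Of 15 glycoside hydrolases of family 9, cellulose-trimming enzymes, 4 fell and 0 rose, led by GH9B8 (-0.98 ± 0.09 SE), GH9C2 (-0.97 ± 0.15) and GH9B13 (-0.85 ± 0.08). Of 23 TBL genes, of a family that acetylates wall polysaccharides, 3 fell and 0 rose, with changes from -0.44 to -0.40, and 1 fell without chitin replicate 2 or without control replicate 2, while 5 fell without control replicate 3. Pectin methylesterases went both ways, 2 up and 2 down of 44, or 4.55 percent each way. That is near the shares over all genes, 4.55 percent up and 4.81 percent down. The called members were AT2G47550 at 1.99 ± 0.14, AT3G10720 at 1.74 ± 0.17, AT5G04960 at -1.50 ± 0.17 and PMEPCRF at -0.69 ± 0.08, and 4 fell without control replicate 2. AT1G62770, a pectin methylesterase inhibitor gene among the 25 largest decreases, had 7.26, 7.03 and 7.66 after chitin against 9.27, 8.71 and 9.06. CSLD2, a cellulose synthase-like gene of root hairs, was called at 0.30 ± 0.08 and lost the call in 5 of the 6 fits that leave out 1 array, with adjusted p up to 0.124.

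Few markers of root tissues were measured. The root hair gene EXPA7 averaged 9.4 after chitin and 9.3 in the control and was not called (0.07 ± 0.12 SE, adjusted p = 0.82). The stele gene LHW averaged 8.3 after chitin and 8.1 in the control and stood at 0.18 ± 0.10 (adjusted p = 0.37) and the endodermal receptor gene GSO1 at -0.06 ± 0.10 (adjusted p = 0.81). AT1G61590, the other endodermal gene measured, was called at 0.41 ± 0.10, and lost the call without chitin replicate 3 (adjusted p = 0.0970), control replicate 2 (0.0639) or control replicate 3 (0.104). AT1G62500, the 1 measured gene of root cap and meristem, was called up with both group means under log2 5, so that no fold is given, and lost the call without control replicate 1 (adjusted p = 0.0800). XTH26 and EXPA18, the other root hair genes measured, were called down at a fitted -1.41 ± 0.37 and -0.38 ± 0.11. XTH26 lost its call without chitin replicate 1, chitin replicate 3 or control replicate 1, and EXPA18 with any 1 of the 6 arrays left out, with adjusted p up to 0.136 and 0.192. Without the replicate block the adjusted p of XTH26 was 0.0712 and that of EXPA18 0.134, and for both genes the chitin and control arrays overlapped. Fewer cells of a type and less RNA per cell cannot be told apart on these arrays.

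Genes of carrier families were among the larger decreases. AT5G38820, an amino acid transporter family gene, had 6.21, 6.06 and 6.48 after chitin against 8.48, 8.41 and 8.06, and fell by 2.07 ± 0.18 (SE, adjusted p = 3.19e-05). AT2G26690, of the nitrate and peptide transporter family, had 5.87, 5.18 and 6.47 after chitin against 7.80, 8.29 and 7.75. AT3G58060, of the cation efflux family, had 6.43, 6.57 and 6.64 after chitin against 8.16, 8.04 and 8.73. Every chitin array of these 3 genes was 1.28 or more below every control array. Of 16 SWEET sugar carriers, counted by symbol after the data had been seen like the transporters that follow, 2 fell and 0 rose, SWEET14 by at least 1.35 and SWEET13 by at least 0.97 on the log2 scale. Of 11 members of the nitrate and peptide transporter family the glucosinolate carrier gene GTR1 (-0.74 ± 0.09) fell beside AT2G26690.

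Other large decreases were of enzymes and proteins of less defined function. AT1G73120 had 6.47, 6.25 and 7.19 after chitin against 8.45, 9.56 and 10.08. AT3G61930 had 6.68, 6.97 and 7.10 after chitin against 9.10, 9.18 and 9.81. AT5G62420, an aldo-keto reductase, fell by at least 1.98 (adjusted p = 7.45e-06). The kelch repeat gene AT3G07720 fell by 1.65 ± 0.19 (SE) and AT1G64590, a short-chain dehydrogenase, by 1.88 ± 0.23. AT4G16980 (-2.22 ± 0.54), AT4G23680 (-1.96 ± 0.55), the lipid transfer protein-like AT2G10940 (-1.77 ± 0.44) and AT5G38980 (fitted -1.53 ± 0.36) had wide errors, and each lost its call in at least 4 of the 6 fits that leave out 1 array, with adjusted p from 0.0602 to 0.201. Control replicate 1 was the lowest control array for all 4, and without it AT4G16980 and AT4G23680 stood at -2.89 and -2.84. The values of AT4G16980 are those of the brighter of its 2 probe sets. Its decrease was smaller with both averaged, and the other probe set did not fall.

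Nuclear genes of photosynthesis fell together. All 10 measured were called down, with a median of -1.55, and so were all 5 genes of the Calvin cycle and photorespiration, with a median of -1.75. The photosynthesis medians against control were also negative after cellobiose (-1.16) and OGs (-1.12), as were those of the second list (-1.33 and -1.25). All of these medians use the same control arrays. Fewer genes were called down against control than after chitin, 3 photosynthesis genes after cellobiose and 2 after OGs. In the second list the counts were 0 and 1. Called lower after chitin than after cellobiose were 0 genes of either list. Against OGs the counts were 1 photosynthesis gene and 0 of the second list. LHCB4.2, of the minor antenna of photosystem II, had 6.87, 5.34 and 7.03 after chitin against 8.45, 8.66 and 8.92, and fell by 2.26 ± 0.35 (SE, adjusted p = 0.00197). PRK, phosphoribulokinase, had 5.81, 4.73 and 5.81 after chitin against 7.48, 7.61 and 8.74, and fell by 2.49 ± 0.44. NdhS, a subunit of the plastid complex for cyclic electron flow, had 6.03, 5.47 and 6.24 after chitin against 7.32, 7.24 and 7.40, and fell by 1.40 ± 0.12. The control arrays of NdhS agreed within 0.16, and its decrease had the smallest error of the 10 photosynthesis genes.

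The 15 genes shared one array pattern. Chitin replicate 2 was the lowest chitin array for all 10 photosynthesis genes and all 5 Calvin cycle and photorespiration genes, and control replicate 3 was the highest control array for all of both lists. The mean over the 10 photosynthesis genes was 7.38, 6.37 and 7.26 on the chitin arrays and 8.20, 8.55 and 8.82 on the control arrays. RCA, rubisco activase, an abundant leaf transcript, reached 9.81, 8.58 and 9.23 after chitin and 10.82, 10.61 and 11.42 on control arrays labelled as root. The part of leaf tissue, or of the spike-in offset between chitin and control arrays, in these decreases was not tested. Without chitin replicate 2 the Calvin cycle and photorespiration decreases numbered 2 of 5, without chitin replicate 3, control replicate 2 or control replicate 3 they numbered 3, and the photosynthesis genes numbered 7 to 10 of 10 called with 1 array left out.

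**Figure D4:**
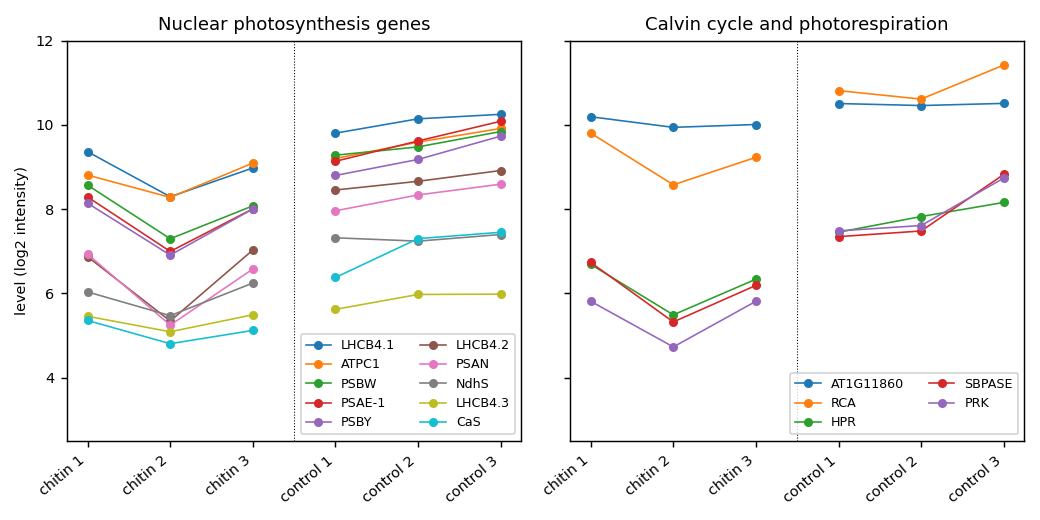
Log2 level of each measured nuclear photosynthesis gene (left) and each Calvin cycle or photorespiration gene (right) on the chitin arrays, left of the dotted line, and the control arrays, right of it, with a thin line joining the 3 arrays of a group for 1 gene as a guide only. Each gene is lowest on chitin replicate 2 and highest on control replicate 3.

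Chlorophyll synthesis and plastid genes followed less closely. Of 6 tetrapyrrole synthesis genes, CHLM, a methyltransferase of chlorophyll synthesis, fell by 0.76 ± 0.16 (SE) and AT1G74470, geranylgeranyl reductase, by 1.00 ± 0.21, while the early enzyme gene HEMB1 stood at 0.29 ± 0.12 (adjusted p = 0.17). Without chitin replicate 2 or without control replicate 2 there was 1 decrease, and without control replicate 1 there were 4. Of 69 plastid-encoded genes 0 rose and 1 fell, with a median of -0.28. Their mean level was 8.06, 7.53 and 7.70 on the chitin arrays and 7.94, 7.82 and 8.33 on the control arrays, so the groups overlapped. Without chitin replicate 1, the array with the highest mean of the 3 after chitin, 21 plastid-encoded genes were called down, without control replicate 1 the count was 3, and without chitin replicate 2, chitin replicate 3 or control replicate 3 it was 0.

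Several of the genes that rose lie next to each other. Among 5845 pairs of adjacent protein-coding genes in which both were measured, 563 pairs held a gene called up and 51 of these had both called up. Both genes were called down in 27 pairs, of 604 that held a gene called down, and 23 pairs had 1 of each. Pairs with both up were 0.873 percent of all pairs, and pairs with both down 0.462 percent. Over all genes 4.55 percent were called up and 4.81 percent down, and the pair counts were not tested against these shares. Of the 5 runs of 3 genes called up, 3 were the chitinases CHI, AT2G43580 and AT2G43590, the peroxidases AT5G64100, AT5G64110 and AT5G64120, and the leucine-rich repeat kinases AT5G49760 (0.77 ± 0.08 SE), AT5G49770 (1.31 ± 0.12) and AT5G49780 (1.71 ± 0.09). Pairs included the chitinases AT2G43610 and AT2G43620, the extensin-like AT1G26240 and AT1G26250, the oxidases AT1G26410 and AT1G26420, the glycosyltransferases UGT73B5 and UGT73B4, and the alpha/beta hydrolases AT2G39400 and AT2G39410. The members of a run differed in level and in size of change, from at least 1.32-fold for AT2G43580 to 14.2-fold for CHI. Related neighbours can share probe sequence, and the part of such sharing in these runs was not tested.

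The response to chitin was set against that to the other wall fragments, a test of the difference itself on the chitin arrays against the cellobiose or OGs arrays. Chitin differed from cellobiose at 359 genes that were higher after chitin and 318 that were lower (2.69 and 2.38 percent), and from OGs at 262 and 163 genes (1.96 and 1.22 percent). Over probe sets the split between chitin and cellobiose was 667 higher and 572 lower (2.93 and 2.51 percent of those tested), and with arrays centred on their medians it was 846 and 316. Of the 25 largest increases over the control, 24 were also higher after chitin than after cellobiose and 22 higher than after OGs. Of the 25 largest decreases, 7 were also lower after chitin than after cellobiose and 7 lower than after OGs. The increases and decreases were chosen on the chitin arrays, which are in both tests, so these counts are a description of the chosen genes.

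Values against the shared control arrays, given side by side, differed from gene to gene. AT1G49000 stood at 3.17 ± 0.13 after chitin, -0.65 ± 0.13 after cellobiose and 0.25 ± 0.13 after OGs (SE), and AT1G55450 at 3.11, 0.09 and 1.09. AT4G28460, the peptide precursor gene, stood at 2.63 after chitin, -0.19 after cellobiose and 0.37 after OGs. The difference from either of the other fragments was called for these 3 genes, with adjusted p of 8.79e-05 or less. WRKY53 was 3.39 ± 0.16 higher after chitin than after cellobiose and 2.66 ± 0.16 higher than after OGs.

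For other genes the level after another fragment lay closer to that after chitin, or above it. AT2G43620 averaged 10.88 ± 0.02 after chitin, 9.91 ± 0.22 after cellobiose, 8.32 ± 0.39 after OGs and 5.96 ± 0.76 in the control (SD, n = 3 each), and chitin minus cellobiose was 0.97 ± 0.30 (SE, adjusted p = 0.103). AT1G72060 was 0.49 ± 0.18 higher after chitin than after OGs (adjusted p = 0.192). LAC16 was lower after chitin than after cellobiose, by a chitin minus cellobiose difference of -1.23 ± 0.17 (adjusted p = 0.00169). The decreases showed the same mixture, since PRK stood at -2.49 after chitin, -1.93 after cellobiose and -2.08 after OGs, and chitin minus cellobiose was -0.56 ± 0.44 (adjusted p = 0.56). The pectin methylesterase inhibitor gene AT1G62770, at -1.70 after chitin, -0.30 after cellobiose and -0.07 after OGs, was called lower after chitin than after either.

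**Figure D5:**
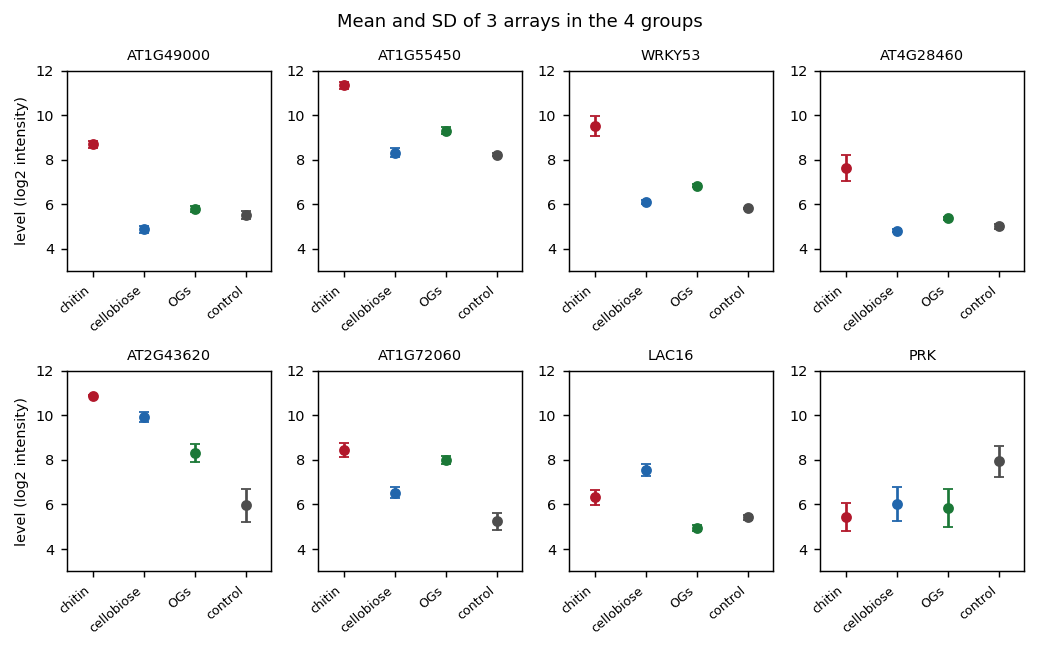
Mean log2 level with the SD of 3 arrays after chitin, cellobiose and OGs and in the control for 8 genes. AT1G49000, AT1G55450, WRKY53 and AT4G28460 are highest after chitin, AT2G43620 is next highest after cellobiose, AT1G72060 next highest after OGs, LAC16 is highest after cellobiose, and PRK is lower after each of the fragments than in the control.

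Probe sets without a gene in the annotation held the extremes. The largest increase was that of probe set 245038_at, with 10.59, 11.05 and 10.40 after chitin against 5.43, 5.19 and 4.79, and 4.36 ± 0.32 (SE) higher after chitin than after OGs. The largest called decrease was that of 250832_at, with 6.69, 6.23 and 7.07 after chitin against 9.42, 9.66 and 10.26. Probe set 246596_at had a larger fitted decrease, -3.26 ± 1.08, and was not called (adjusted p = 0.0857). Of the 8730 probe sets not listed in the annotation 516 were called up and 686 down. Over all 22746 probe sets tested 1157 (5.09 percent) were called up and 1350 (5.94 percent) down.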

How the data were processed

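Probe set values of 12 Affymetrix ATH1 arrays were read from the deposited series table, in which they are log2 intensities. The authors analysed the arrays with GCRMA, per the series design text, and Affymetrix Expression Console is named in the submitters' processing notes. The sources used here do not say which of these made the deposited log2 values, nor their versions. Such normalization removes a shift shared by all transcripts. The number of arrays limits the precision.

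Of 22810 probe sets 64 manufacturer controls were left out of the tests. One limma model (version 3.58.1, in R 4.3.3) held all 12 arrays, with a term for each of 4 groups and a block for replicate number, after the design text's ratios within sample pairs, which left 6 residual degrees of freedom, and eBayes moderated the variances. P-values were Benjamini-Hochberg adjusted over 22746 probe sets in each contrast, and called at an adjusted p under 0.05. The labels name biological replicates, and p-values measure the spread left between them.

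The annotation gave 13513 probe sets exactly 1 gene, and the brightest probe set stood for each of 13355 genes. A group mean under log2 5 was treated as dim. The dimmer group was then raised to 5 and the change given as "at least", unless the higher mean was also under 5. Named genes are the 25 largest increases and 25 largest decreases called, with the same sign in all 3 same-number pairs and a higher mean of at least log2 5, up to 6 called members per list by adjusted p, and the probe sets with the largest changes. Others are stated as chosen after their values were seen, as are the called members named from families. Members, lists and tests were chosen with earlier results of these data known. Alternatives were the replicate block, 2 groups fitted alone, quantile normalization, median centring, a variance trend, a filter on dim probe sets, averaged probe sets and each array left out. On simulated data for chitin against control with 22746 probe sets, 50 were changed at each of the sizes 0.5, 1, 1.5 and 2. Recovery was 38, 98, 92 and 98 percent, with 9 false calls. Far fewer probe sets were changed than the 2507 called in the data, so these figures need not hold for the data.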

Additional observations from a re-analysis of the deposited data

How the results depend on the processing

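With each array left out in turn, chitin against control gave 1540 to 2640 probe sets called, 843 to 1144 up and 687 to 1496 down, and 779 to 1344 genes, 446 to 600 up and 331 to 744 down. The low ends came without chitin replicate 2 or control replicate 2. With the 6 chitin and control arrays fitted alone the counts were 1088 probe sets (664 up, 424 down) and 544 genes (349 up, 195 down). The ratio of increases to decreases turned under quantile normalization (1300 up, 1157 down) and median centring (1295 up, 1108 down), as it did over genes. Chitin against cellobiose gave 625 to 1200 probe sets with 1 array left out, 418 to 621 up and 199 to 579 down, and 316 down under median centring. Chitin against OGs gave 456 to 834, 353 to 461 up and 94 to 373 down. Of the 110 genes named by rule 77 kept their call under every alternative that held them and 33 lost it in at least 1. Of these 31 lost it when 2 groups were fitted alone, and 0 changed direction. The fit without dim probe sets held 99 of the 110 genes, so the rest were not tested there. AT4G16980 stood at -1.06 with its 2 probe sets averaged, against -2.22 for the brighter, so the other probe set did not fall. The cause of the lost calls and changed counts was not tested.

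Same-numbered arrays did not deviate together: over 18 pairs the correlations of their deviations from the group means lay between -0.23 and 0.25. Leaving out the replicate block gave 2698 probe sets called, 1231 up and 1467 down, and 3 of the 110 named genes lost their call. Of the dimmest 4452 genes 0.809 percent were called up, and the part of dim signal in that share was not tested.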

Other observations

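Smaller families, counted by symbol after the data had been seen, also held changes after chitin. Of 10 subtilases, secreted proteases, 3 rose and 0 fell, SBT3.5 by 0.75 ± 0.09 (SE), SBT4.12 by 0.32 ± 0.08 and SBT3.3 by a fitted 0.49 ± 0.12 near the dim level, and 1 rose without chitin replicate 1, chitin replicate 2 or control replicate 2. Of 10 RALF-like peptide genes, signals read by receptor kinases of the FER family, RALFL27 fell by 0.94 ± 0.16 and RALFL18, under log2 5 in both groups, was called up, a call that was lost without chitin replicate 1, chitin replicate 2 or control replicate 2. Of 6 serine carboxypeptidase-like genes SCPL27 fell by 0.64 ± 0.10 and SCPL32 had a fitted change of -0.41 ± 0.11, and 1 was called down without chitin replicate 1, control replicate 1 or control replicate 2.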
